A study of Mus musculus with 15 samples.

Results

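The lysosome and autophagy genes described here were 39 protein-coding genes out of 21973 protein-coding genes and 49585 genes in the count table. They were taken by symbol: 8 lysosomal membrane proteins, 7 cathepsins, 6 glycosidases, 5 lipid-degrading enzymes and their cofactors, 6 subunits of the vacuolar proton pump (V-ATPase), 3 of the MiT/TFE transcription factors and 4 autophagy genes. All 39 were found, and 38 had enough counts to be tested in every comparison. Ctss, a cathepsin best known from macrophages and microglia, was the exception, with 3 counts over the 005 libraries, 0 on day 2, 5 in TDECs, 3 with sertraline and 0 in MBMECs.

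Poly(A) RNA was sequenced from 5 groups of 3 libraries each, all from C57BL/6 material. The line 005 is a mouse glioma stem cell (GSC) line, kept in serum-free stem cell medium. Tumor derived endothelial cells (TDECs) were grown out of 005 in EGM-2, an endothelial growth medium, at 1% oxygen. They were taken on day 2, as TDECs without a day in the labels (day 5 in the study's methods), and as TDECs grown for 5 days and then given 5 µM sertraline, an antidepressant, for 24 hours. MBMECs are mouse brain microvascular endothelial cells, bought and cultured in a medium with serum. All TDECs therefore came from 1 line, and medium and oxygen changed together with the cell state. No label says whether untreated TDECs were collected at the same hour as treated ones, so up to 24 hours of age cannot be told apart from the drug. Sample titles also carry a prefix in 005 and untreated TDECs that is missing in the treated group, so a batch cannot be told apart from the drug either.

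Lysosomes are acidic organelles in which hydrolases break down proteins, glycans and lipids. The V-ATPase pumps protons into them, membrane proteins such as Lamp1 and Lamp2 line and shield them, and autophagosomes, coated with LC3 and GABARAP proteins, bring them cargo held by receptors such as Sqstm1 (p62). TFEB, TFE3 and MITF bind a shared DNA element with the core CACGTG in the promoters of many lysosomal genes, and their activity is set largely by phosphorylation and transport into the nucleus, which RNA levels do not show. Sertraline is a cationic amphiphilic weak base, a kind of drug that gathers in acidic compartments and is known to lower the activity of acid sphingomyelinase, the product of Smpd1.

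To show which members carry the element itself, promoters were read from RefSeq (build GRCm38.p6, 250 bases before to 50 after each start, 42 entries for 35 of the 39 members). The letters TCACGTGA, a CACGTG core with its flanking T and A, were searched on both strands (the motif reads the same on each). They occurred in 6 of the 35 members (17.1%) and in 246 of 17492 protein-coding genes (1.41%). The shorter CACGTG, which includes those matches, was in 10 members (28.6%) against 8.91% of protein-coding genes. Below are the 6 members with TCACGTGA, ordered by their change from 005 to TDECs, each with a 30-base window read along the gene's strand and the motif in capitals. The windows lie at chr7:142387908-142387937 (Ctsd, minus strand), chr2:164833749-164833778 (Ctsa, plus), chrX:134601182-134601211 (Gla, minus), chr8:3500462-3500491 (Mcoln1, plus), chr8:105566050-105566079 (Atp6v0d1, minus) and chr16:44139373-44139402 (Atp6v1a, minus).
Ctsd: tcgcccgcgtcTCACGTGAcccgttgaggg
Ctsa: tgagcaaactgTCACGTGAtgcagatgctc
Gla: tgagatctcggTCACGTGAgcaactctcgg
Mcoln1: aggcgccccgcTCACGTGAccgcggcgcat
Atp6v0d1: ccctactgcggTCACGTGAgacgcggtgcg
Atp6v1a: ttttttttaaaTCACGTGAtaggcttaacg
In Ctsd the capitals begin 99 bases upstream of the start, in Ctsa 13, in Gla 195, in Mcoln1 46, in Atp6v0d1 4 and in Atp6v1a 132. Ctsa and Gla each hold another copy. A match is a description of letters and says nothing on binding.

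Over all libraries, members took 0.480% ± 0.0207% of raw counts in 005 (SD, n = 3), 0.577% ± 0.00836% on day 2 and 0.934% ± 0.00337% in TDECs. The share was 0.936% ± 0.0281% with sertraline and 0.786% ± 0.0211% in MBMECs. The lowest TDEC library, at 0.931%, lay above the highest 005 library, at 0.504%, and above the highest MBMEC library, at 0.806%. In bulk RNA, more cells of one kind and more RNA per cell cannot be told apart.

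**Figure D1:**
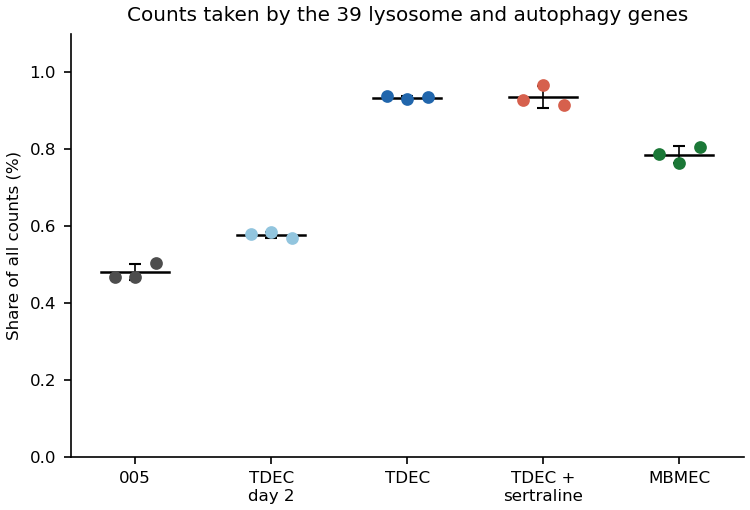
Share of all counts (%) taken by the 39 members in each library (points), with group mean (line) and SD (error bar), n = 3 per group. The share rises from 0.480% in 005 to 0.934% in TDECs, and the TDEC and sertraline groups overlap.

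Total counts ranged from 11283680 to 13642496 in the 005 and TDEC groups, treated TDECs included, and from 15617686 to 17093061 in MBMECs. Replicate 3 of 005 and replicate 3 of day 2 stood apart from their group (chi-square per gene of 10.4 to 10.9 from the others, against 2.09 and 2.46 between the remaining pairs), and so did replicate 2 with sertraline (6.51 to 6.78 against 2.21). Replicate 2 of MBMECs stood apart by less (4.14 and 4.67 against 2.69). Mitochondrially encoded genes took 2.36% of counts in 005, 2.21% on day 2, 3.52% in TDECs, 2.57% with sertraline and 1.53% in MBMECs, and their part in the results was not tested. The 10 endothelial markers summed to 8.11 to 9.84 CPM (read counts scaled to 1 common library size) in TDECs and to 7646 to 7796 CPM in MBMECs, so the label endothelial was not borne out by the RNA of these genes in TDECs. The study's evidence for the label includes CD31 and CD34 protein staining and tube formation, which these RNA values do not measure. Cd68, Gpnmb, Ctsk and Ctss are also well known from macrophages, microglia, osteoclasts or pigment cells. The 18 macrophage, microglia and leukocyte markers summed to 12.6 to 13.5 CPM in 005, 10.1 to 11.01 on day 2, 8.61 to 11.3 in TDECs, 11.2 to 14.3 with sertraline and 13.7 to 16.7 in MBMECs, and Adgre1, C1qa, C1qb and C1qc were at 0 in all groups. The 9 melanocyte and osteoclast markers, with Tyr and Oca2 at 0 throughout, summed to 0.506 to 0.955 CPM in 005, 1.22 to 1.97 on day 2, 2.005 to 3.01 in TDECs, 1.45 to 2.97 with sertraline and 0.602 to 1.103 in MBMECs. This sum rose with Gpnmb and Mitf from 005 to TDECs without overlap, the 1 gene of the list with enough counts to be tested, Pmel, was called higher in TDECs (0.532 to 2.27 mean CPM, log2 fold change 2.06), and the part of such cells in the results was not tested.

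Levels compared between genes need a correction for length, and per kilobase of exon Psap was the most abundant member in all 5 groups. Psap, the precursor of the saposins that help lipid hydrolases, stood at 237 CPM per kilobase in 005, 294 on day 2, 493 in TDECs, 422 with sertraline and 366 in MBMECs. Lamp1 was next in 4 groups and took place 4 with sertraline. Sqstm1 moved from place 6 in 005 (64.3 CPM per kilobase) to place 3 in TDECs (323) and place 2 with sertraline (316). The transcription factors were at the low end, with 2.89 for Tfe3, 2.46 for Tfeb and 1.03 for Mitf in 005, and 4.57, 1.95 and 2.80 in TDECs. Of the 38 tested members, 14 had their highest mean CPM in TDECs, 12 in MBMECs, 8 with sertraline, 2 in 005 and 2 on day 2, while 20 had their lowest in 005. The same counts were not taken over all genes, so nothing is read from them about the list.

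The first comparison asks how these genes changed as 005 cells became TDECs. From 005 to TDECs, most members rose: 33 of 38 had a higher level at an adjusted p under 0.05, 3 had a lower one and 2 did not pass. A member was called higher or lower when it also passed a fold change of 2, the study's threshold, and 20 were called higher and 0 lower. Over all 15648 genes tested, 13.1% were called higher and 10.4% lower, and 32.4% and 33.0% passed without the fold threshold. The members' median log2 fold change was 1.04, against -0.0106 over all genes. Without 005 replicate 3, 20 were again called higher and 0 lower. The 3 libraries of TDECs did not overlap with those of 005 for 36 members, as for 69.5% of all genes. The fold threshold lay inside the bulk of the list, with 8 members between 0.9 and 1.1 on the log2 scale, so Ctsb and Psap (both 1.04) counted as called and Atp6ap1 (0.98) did not. Scaled by plain library totals in place of TMM, the median of all genes moved to -0.141, 12 members were called higher, and the split of all calls changed from 2043 higher and 1633 lower to 1743 higher and 1999 lower.

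**Figure D2:**
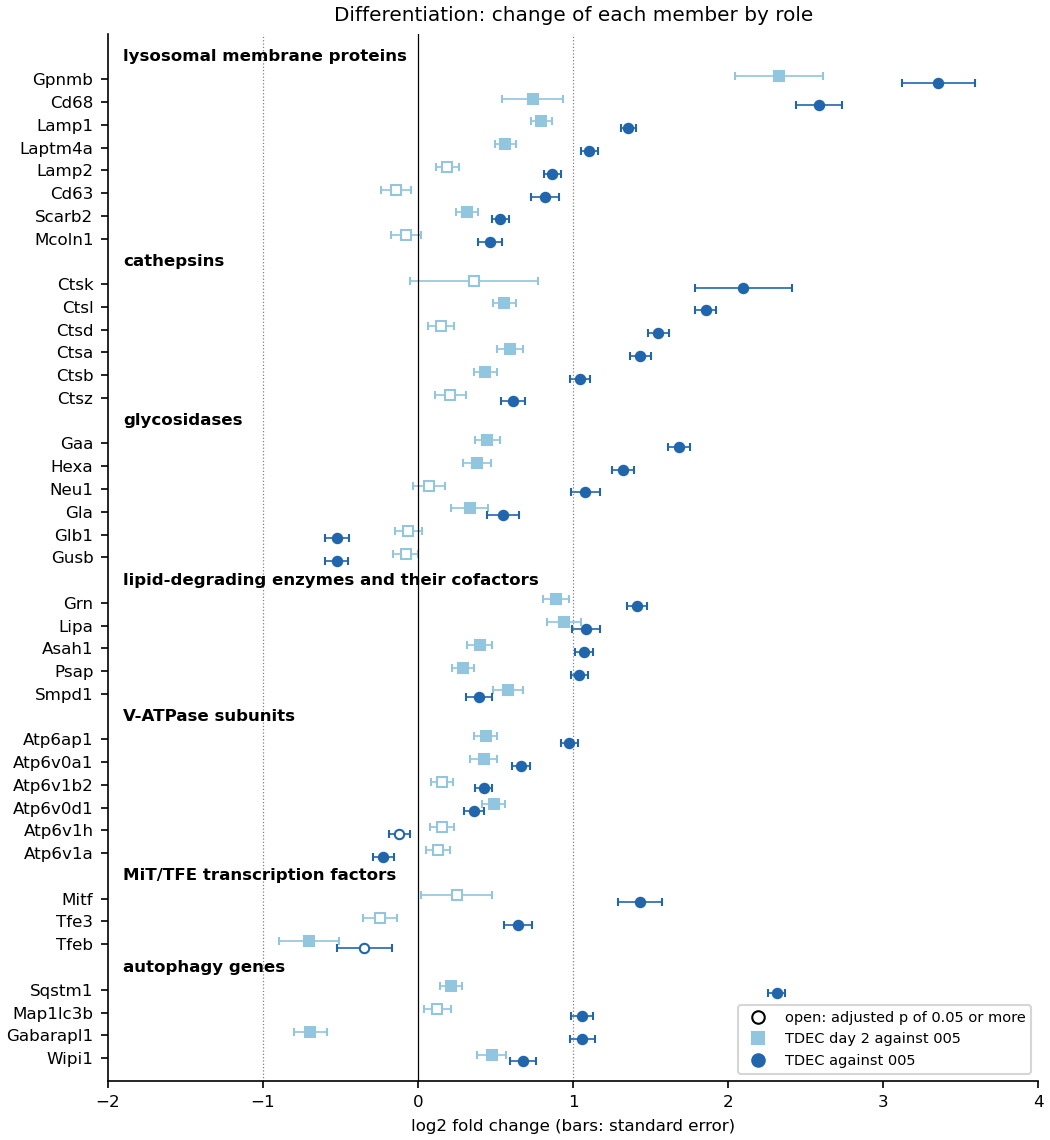
log2 fold change of each tested member against 005 on day 2 (squares) and in TDECs (circles), grouped by role, with standard errors. Open symbols have an adjusted p of 0.05 or more, and dotted lines mark a fold change of 2. Most circles lie to the right of the squares. Glb1, Gusb and Atp6v1a lie below 0 in TDECs with filled circles.

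All 8 membrane proteins rose, with 4 called. Gpnmb, a glycoprotein of lysosomes and melanosomes and a known MiT/TFE target (ENSMUSG00000029816, chr6:49036546-49070929, plus strand), had the largest change. Its libraries held 0.722, 1.69 and 1.36 CPM in 005, 6.604, 6.17 and 6.48 on day 2 and 12.03, 12.6 and 14.6 in TDECs. The groups rose in 2 steps without overlap, by a log2 fold change of 2.33 ± 0.28 to day 2 (SE, adjusted p = 9.4e-05) and by 1.01 ± 0.14 from day 2 to TDECs (adjusted p = 9.11e-05). The whole change from 005 to TDECs was 3.36 ± 0.23 (adjusted p = 9.21e-08), though from only 52 counts over the 3 libraries of 005. Cd68, a heavily glycosylated lysosomal protein used as a macrophage marker (ENSMUSG00000018774, chr11:69664213-69666153, minus strand), stood at 4.12, 4.19 and 5.59 CPM in 005, 7.67, 8.83 and 6.98 on day 2 and 24.5, 30.0 and 30.0 in TDECs. Most of its rise came after day 2, and the log2 fold change from 005 to TDECs was 2.59 ± 0.15 (adjusted p = 1.68e-08). Of the 18 macrophage, microglia and leukocyte markers, only 2 had enough counts to be tested in this comparison, and 1 was called lower. The sum of that list (above) therefore says little about most of its genes. The part of such cells in this result was not tested. Lamp1 rose from 355 to 357 CPM to 907 to 931 CPM (log2 fold change 1.35) and Laptm4a, a small multispanning protein, by 1.104. Lamp2 (0.87), Cd63 (0.82), Scarb2, also known as LIMP-2 (0.53), and the calcium channel Mcoln1 (0.46) rose by less than 2-fold.

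All 6 tested cathepsins, the lysosomal proteases, rose, and 5 were called. Ctsl stood at 106, 110 and 99.7 CPM in 005, 159, 152 and 159 on day 2 and 367, 368 and 416 in TDECs. Each step was larger than the spread between replicates, and the whole change was 1.85 ± 0.07 on the log2 scale (adjusted p = 2.85e-10). Ctsd, an aspartic protease, stayed at 78.6 to 89.2 CPM in 005 and 90.3 to 98.1 on day 2 and then reached 240, 248 and 250 CPM in TDECs. Its step to day 2 did not pass (0.15 ± 0.08, adjusted p = 0.176), whereas the step from day 2 did (1.38 ± 0.06, adjusted p = 5.18e-09). Ctsa, a serine carboxypeptidase that also shields Neu1 and Glb1, had 59.6, 60.8 and 66.9 CPM in 005 and 176, 165 and 170 in TDECs, a log2 fold change of 1.43 ± 0.07 (adjusted p = 2.82e-09). Ctsk, the collagen-cleaving protease of osteoclasts, rose by 2.098 ± 0.31 (adjusted p = 8.17e-05), but at a very low level of 0.794, 0.514 and 0.573 CPM in 005 and 3.28, 2.42 and 2.57 in TDECs. Ctsb (1.04) and Ctsz (0.61) completed the set. Exons of other genes overlap 34.4% of the exon length of Ctsd, 26.8% of Ctsl, 17.4% of Ctsa and 12.8% of Ctsb. The partner of Ctsd lies on the same strand, as does 1 of 2 for Ctsl, and the strand would not separate their reads. The other partners are antisense. Since the strand setting of the counting is not given in the sources used here, their reads cannot be separated either.

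Of the glycosidases, which cut sugars from glycans and glycolipids, 4 rose and 2 fell. Gaa, the acid alpha-glucosidase that degrades glycogen, went from 171, 163 and 190 CPM in 005 through 243, 246 and 235 on day 2 to 587, 540 and 572 in TDECs, a log2 fold change of 1.68 ± 0.07 (adjusted p = 7.8e-10). Hexa (1.32) and the sialidase Neu1 (1.08) were also called, and Gla rose by 0.55. An antisense gene overlaps 12.8% of the exon length of Hexa. Gusb, beta-glucuronidase, went the other way, with 63.7, 69.7 and 67.6 CPM in 005, 64.6, 62.2 and 65.7 on day 2 and 43.8, 48.8 and 48.4 in TDECs. It fell by 0.53 ± 0.07 on the log2 scale (adjusted p = 5.02e-05), and Glb1, beta-galactosidase, fell by 0.52 ± 0.08 (adjusted p = 8.41e-05). For both, the fall lay after day 2, where TDEC libraries no longer overlapped with the earlier groups.

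The 5 lipid-degrading enzymes and cofactors all rose, with Grn, the precursor of granulins (1.41), Lipa, the acid lipase that frees cholesterol (1.08), Asah1, acid ceramidase (1.07), and Psap (1.04) called. Their timing differed. Lipa went from 22.5, 18.4 and 20.9 CPM in 005 to 41.4, 41.4 and 37.3 on day 2 and 43.5, 44.5 and 44.2 in TDECs, so that nearly all of its change came in the first step (0.94 ± 0.11, adjusted p = 5.8e-05) and the second did not pass (0.12 ± 0.07, adjusted p = 0.168). Smpd1, acid sphingomyelinase, rose on day 2 (0.58 ± 0.09, adjusted p = 0.000664) from 44.2, 41.1 and 37.8 CPM to 64.5, 57.4 and 64.6, then fell by 0.20 ± 0.08 (adjusted p = 0.042) to 52.3, 52.4 and 58.7 in TDECs. This fall was lost with DESeq2 and when any of 3 libraries was left out, namely TDEC replicate 1 or 2 or day 2 replicate 1 (adjusted p of up to 0.144).

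The V-ATPase subunits changed least, at a median of 0.39 on the log2 scale and none called. Atp6ap1, an accessory subunit (0.98), Atp6v0a1 (0.66), Atp6v1b2 (0.42) and Atp6v0d1 (0.36) rose, Atp6v1a, the catalytic subunit of the cytosolic part, fell by 0.22 ± 0.07 (adjusted p = 0.00945), and Atp6v1h was at -0.12 ± 0.07 (adjusted p = 0.137). From day 2 to TDECs, both Atp6v1a and Atp6v1h fell, by 0.37 and 0.29, while Atp6ap1 rose by 0.52.

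Of the MiT/TFE factors among the members, Mitf and Tfe3 rose and Tfeb did not. Mitf, the melanocyte and osteoclast member of the family (ENSMUSG00000035158, chr6:97807052-98021349, plus strand), held 6.43, 6.98 and 5.73 CPM in 005, 5.47, 7.32 and 10.3 on day 2 and 15.04, 18.97 and 18.04 in TDECs. The day 2 libraries spread across those of 005 (0.25 ± 0.23, adjusted p = 0.42, and -0.01 without day 2 replicate 3), and the rise to TDECs was 1.43 ± 0.14 (adjusted p = 2.24e-06). Tfe3 (chrX:7762560-7775202, plus strand) stood at 27.8, 24.1 and 28.5 CPM in 005, 22.7, 22.6 and 23.4 on day 2 and 39.6, 42.4 and 44.9 in TDECs, a rise of 0.64 ± 0.09 (adjusted p = 5.86e-05). Tfeb (chr17:47737030-47792419, plus strand) stood at 12.5, 12.3 and 17.1 CPM in 005, 10.6, 8.54 and 6.81 on day 2 and 9.48, 13.7 and 10.01 in TDECs. It fell to day 2 by 0.70 ± 0.19 (adjusted p = 0.0146), but did not pass without 005 replicate 3 or day 2 replicate 2 (adjusted p of up to 0.0697). Its change to TDECs was -0.35 ± 0.18 (adjusted p = 0.102).

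All 4 autophagy genes rose, and 3 were called. Sqstm1, the cargo receptor p62 (ENSMUSG00000015837, chr11:50199366-50210827, minus strand), held 215, 209 and 224 CPM in 005, 264, 250 and 247 on day 2 and 1079, 1096 and 1073 in TDECs. The first step was small (0.21 ± 0.07, adjusted p = 0.0327) and depended on the setting, passing in 7 of 13. The second step was 2.08 ± 0.05 (adjusted p = 7.27e-11), the largest change of any member between day 2 and TDECs. Gabarapl1, which coats autophagosomes, first fell and then rose, with 101, 92.8 and 113 CPM in 005, 63.8, 71.1 and 56.7 on day 2 and 206, 231 and 209 in TDECs. Its steps were -0.70 ± 0.10 (adjusted p = 4e-04) and 1.74 ± 0.09 (adjusted p = 1.96e-08), with no overlap between any of the 3 groups. Map1lc3b, which encodes LC3B, rose by 1.06 from 005 to TDECs and Wipi1, which marks forming autophagosomes, by 0.67. Antisense genes overlap 28.3% of the exon length of Gabarapl1 and 17.3% of Sqstm1.

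Read by step, 21 members passed higher and 2 lower on day 2 against 005, where 18.8% and 20.2% of all genes did, and 15 did not pass. Only Gpnmb was called, against 5.35% of genes called higher and 4.48% lower, and the members' median was 0.323 against -0.0213 for all genes. From day 2 to TDECs, 29 passed higher and 5 lower, against 31.0% and 31.9% of all genes, 9 were called higher and 0 lower, against 11.1% and 9.35%, and the median was 0.568 against 0.0022. These 9 were Sqstm1 (2.08), Cd68 (1.83), Gabarapl1 (1.74), Ctsk (1.72), Ctsd (1.38), Ctsl (1.28), Gaa (1.22), Mitf (1.17) and Gpnmb (1.01). Mitf (0.967 without day 2 replicate 1) and Gpnmb (0.93 without TDEC replicate 3, 0.981 without day 2 replicate 2) dropped under the fold threshold when those libraries were left out. Both steps share the day 2 libraries, so the values are given side by side. On day 2, Lipa (0.94), Grn (0.89) and Lamp1 (0.80) followed Gpnmb, and without 005 replicate 1, or without replicate 3 of both groups, Lipa passed the fold threshold as well (1.02). Without replicate 3 of both groups, 27 members passed higher and 2 lower.

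**Figure D3:**
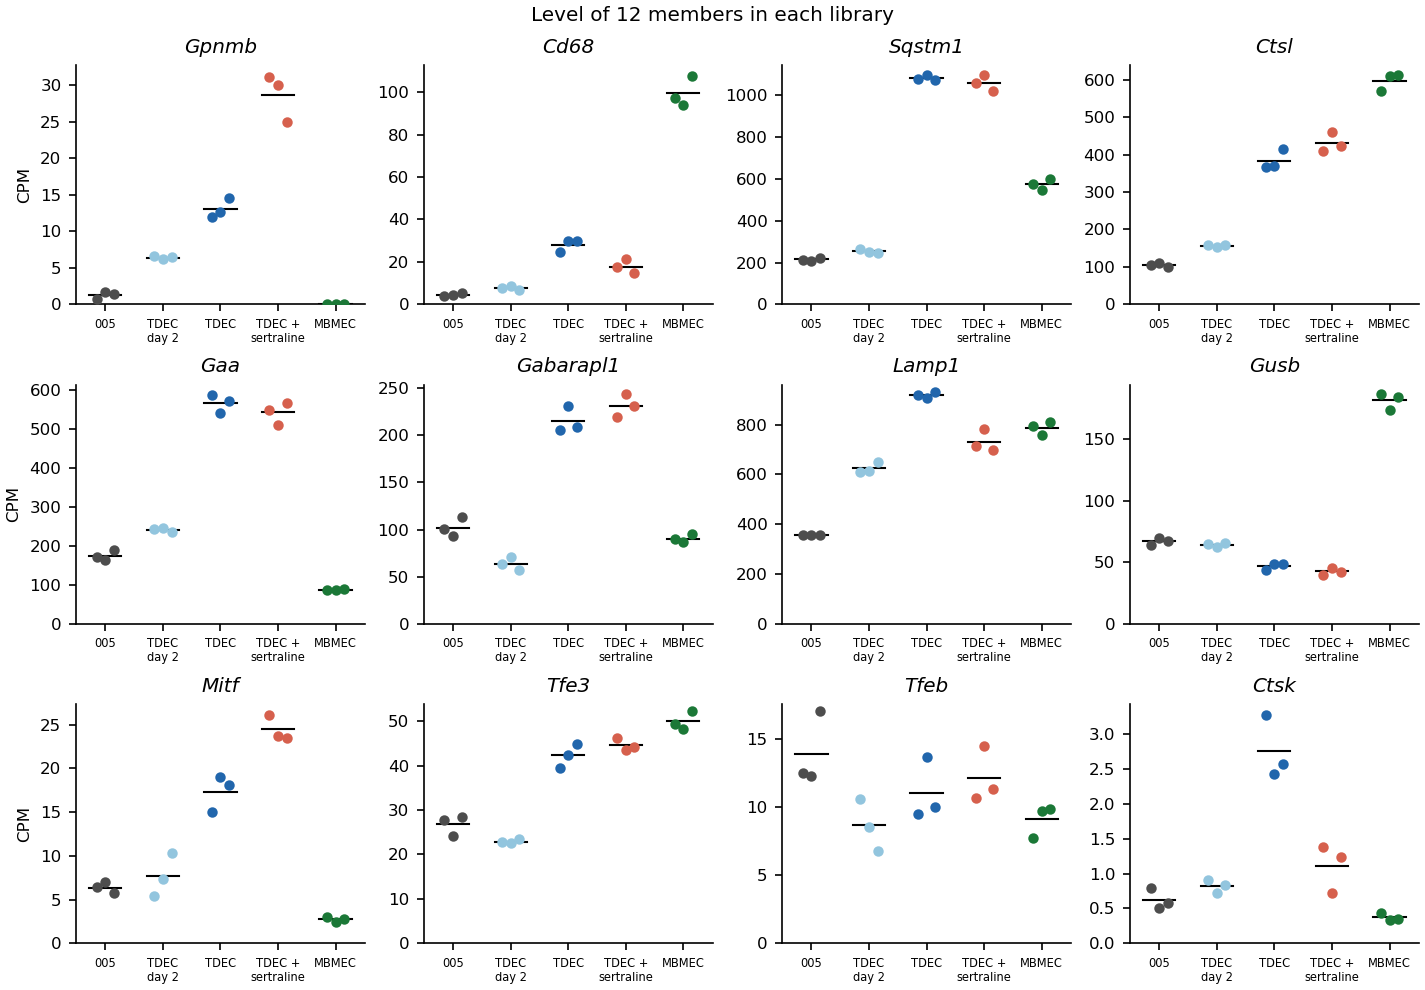
CPM of 12 members in each library (points) with the group mean (line), each panel on its own linear axis from 0. Sqstm1, Gabarapl1 and Cd68 move mainly after day 2, Lamp1 at both steps, Gusb falls in TDECs and is highest in MBMECs, and Gpnmb is highest with sertraline and at 0 in MBMECs.

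Of the 6 members with TCACGTGA in the promoter windows shown above, Ctsd and Ctsa were called in TDECs against 005, and the 6 had a median log2 fold change of 0.505, with Atp6v1a below 0 (-0.22). Of the 28 tested members whose promoters lack these letters, 16 were called, with a median of 1.06. For the CACGTG core alone the gap was small, with 5 of 10 members called and a median of 0.951, against 13 of 24 and 1.05 without it. Gpnmb, Cd68, Sqstm1 and Ctsk, which rose most, held no CACGTG in the window of 250 bases before to 50 after the start. Ctsl (1.85), Gaa (1.68), Ctsd (1.55) and Ctsa (1.43), the next in size, all held it. Lamp1 held 4 copies, none of them with both flanking letters.

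Other genes of the same pathways, on lists that leave out the members, moved in part with them between 005 and TDECs. Over all genes, 32.4% passed higher and 33.0% lower, and 13.1% were called higher and 10.4% lower. Of 33 other lysosomal enzymes and cofactors tested, 24 passed higher and 1 lower, 10 were called higher, and the median was 0.759. They included Naglu, which degrades heparan sulfate (21.3 to 82.4 mean CPM, log2 fold change 1.94), Tpp1, a tripeptidyl peptidase (1.58), and Scpep1, a serine carboxypeptidase (1.57). Of 14 other V-ATPase subunits, 11 passed higher and 1 lower, with a median of 0.621 and Tcirg1 (1.14) and Atp6v0c (1.02) among the 3 called. Among 27 genes of lysosomal trafficking and other membrane proteins, 17 passed higher and 4 lower, and the median was 0.398. Of these, 3 were called higher and 1 lower. Gnptab, which makes the mannose 6-phosphate tag that sorts hydrolases to lysosomes, fell by 1.09 ± 0.10 on the log2 scale (61.6 to 29.2 mean CPM, adjusted p = 1.77e-06).

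Of 39 other autophagy genes, 24 passed higher and 5 lower, with a median of 0.28. Only 3 were called, a share under the 13.1% of all genes called higher. The 3 called were the mitophagy receptors Bnip3 (51.1 to 375 mean CPM, 2.86 ± 0.08) and Bnip3l (136 to 382, 1.47 ± 0.05), both known to respond to low oxygen, and Tecpr1 (1.102), which takes part in the fusion of autophagosomes with lysosomes. TDECs were grown at 1% oxygen, and medium and oxygen cannot be told apart here. Genes that set mTORC1 and TFEB activity at the lysosome did not move together: of 24 tested, 8 passed higher and 5 lower, with a median of 0.0316. The shares passing and called higher were near the 32.4% and 13.1% over all genes. The 3 called were Sesn2, a stress-induced mTORC1 inhibitor (25.1 to 131 mean CPM, 2.37 ± 0.11), Flcn (1.29) and its partner Fnip1 (1.04), which hold MiT/TFE factors in the cytosol. On day 2 none of these 3 had passed (0.07 for Sesn2, -0.09 for Flcn and 0.17 for Fnip1).

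With sertraline, TDECs kept the high share of raw counts taken by these genes, and single members moved in both directions. That share was not scaled by TMM as the tests were. Of 38 members, 5 passed higher and 11 lower, against 17.6% and 17.7% of all 15540 genes, and 22 did not pass. Gpnmb was called higher and Ctsk lower, against 1.82% and 3.26% of genes, and the members' median log2 fold change was -0.0617, against -0.00025 over all genes. The direction of the smaller changes depended on the scaling: with plain library totals the median of all genes became 0.0711, the members' median 0.00972, and 9 members passed higher and 6 lower. Without sertraline replicate 2, 5 passed higher and 13 lower, and without TDEC replicate 1, 6 passed lower.

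**Figure D4:**
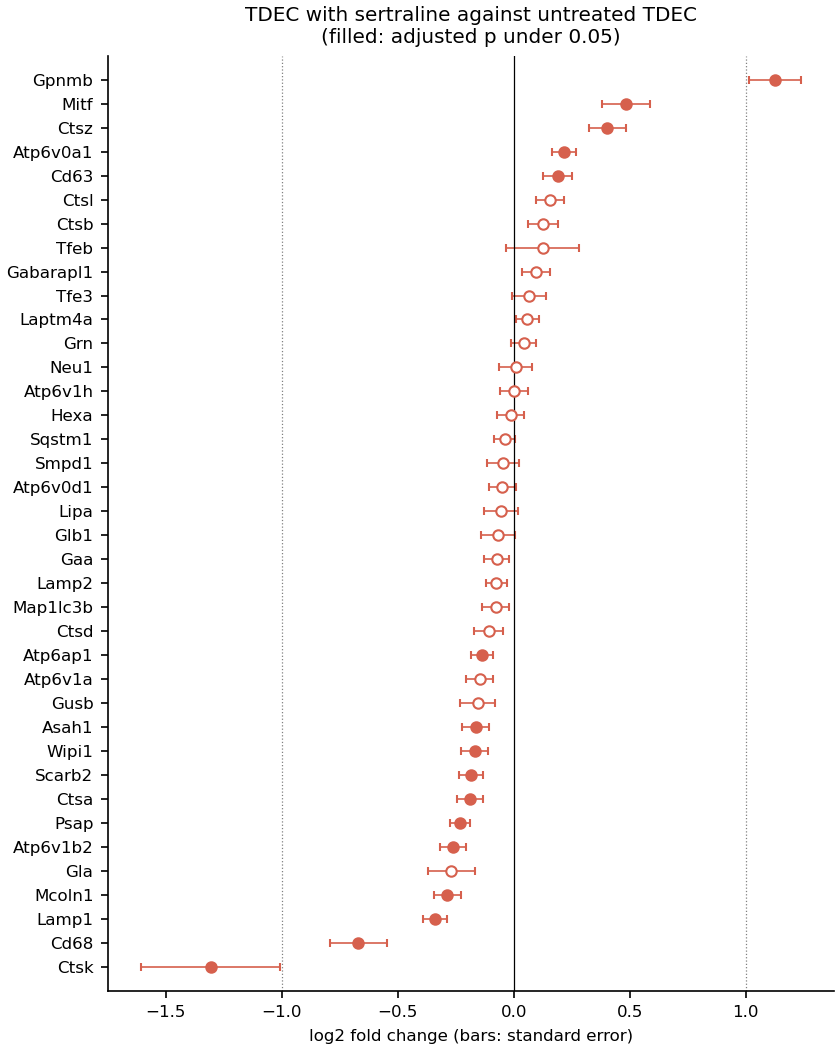
log2 fold change of all 38 tested members in TDECs with sertraline against untreated TDECs, ordered by size, with standard errors. Filled circles have an adjusted p under 0.05 and dotted lines mark a fold change of 2. Gpnmb and Ctsk lie past the lines in opposite directions, and most others lie between -0.35 and 0.25.

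Gpnmb held 12.03, 12.6 and 14.6 CPM in untreated TDECs and 31.2, 30.04 and 24.95 with sertraline. All treated libraries lay above all untreated ones (21 members and 47.4% of all genes did not overlap between these groups), by a log2 fold change of 1.13 ± 0.11 (adjusted p = 1.61e-06). Mitf went from 15.04, 18.97 and 18.04 CPM to 26.1, 23.7 and 23.5, a rise of 0.48 ± 0.10 (adjusted p = 0.00183) without overlap. The other factors did not pass: Tfe3 stood at 46.2, 43.5 and 44.1 CPM with the drug (0.07 ± 0.07, adjusted p = 0.515) and Tfeb at 10.6, 14.5 and 11.4 (0.12 ± 0.16, adjusted p = 0.574).

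Ctsz, a carboxypeptidase, rose from 59.8, 58.2 and 52.8 CPM to 72.4, 85.4 and 69.3 (0.40 ± 0.08, adjusted p = 0.000953). Atp6v0a1 rose from 175, 174 and 171 CPM to 203, 210 and 193 (0.22 ± 0.05, adjusted p = 0.00493), and Cd63 from 519, 521 and 469 to 568, 627 and 535 (0.19 ± 0.06, adjusted p = 0.0254). The groups did not overlap for these 3, though Cd63 did not pass without TDEC replicate 3 or with all 15 libraries in 1 fit (adjusted p of up to 0.151). For all 3, replicate 2, the library that stood apart, was the highest of the treated ones.

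Among the members that fell, Ctsk dropped from 3.28, 2.42 and 2.57 CPM to 1.38, 0.724 and 1.24, a log2 fold change of -1.31 ± 0.30 (adjusted p = 0.00309) that rested on 96 and 46 counts. Cd68 went from 24.5, 30.0 and 30.0 CPM to 17.5, 21.2 and 14.8 (-0.67 ± 0.12, adjusted p = 0.000514). Lamp1 went from 919, 907 and 931 CPM to 715, 783 and 697 (-0.34 ± 0.05, adjusted p = 9.21e-05). None of these 3 overlapped between groups. Of the macrophage, microglia and leukocyte markers, 2 could be tested with sertraline, and 1 was called higher.

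Psap went from 1331, 1354 and 1370 CPM to 1146, 1188 and 1140 (-0.23 ± 0.04, adjusted p = 0.00069). Mcoln1, the calcium channel, went from 101, 91.8 and 93.0 CPM to 76.5, 78.8 and 80.5 (-0.29 ± 0.06, adjusted p = 0.00139), and Atp6v1b2 from 183, 175 and 179 to 145, 148 and 158 (-0.26 ± 0.05, adjusted p = 0.00144). Ctsa (-0.19), Scarb2 (-0.18), Wipi1 (-0.17), Asah1 (-0.16) and Atp6ap1 (-0.14) passed as well, but each of these 5 did not pass in 2 to 8 of 12 alternative settings, TDEC replicate 1 left out among them. The other 11 members that passed were Cd63, above, and 10 that passed in all 12 settings.

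Smpd1, whose product sertraline is known to inhibit, held 52.3, 52.4 and 58.7 CPM in untreated TDECs and 52.0, 54.9 and 52.3 with the drug. The groups overlapped, and the log2 fold change was -0.05 ± 0.07 (adjusted p = 0.633). Sqstm1 stayed at 1061, 1100 and 1019 CPM (-0.04 ± 0.05, adjusted p = 0.548), and of the glycosidases none passed, with values between -0.27 for Gla and 0.01 for Neu1. Of the wider lists, other lysosomal enzymes had 6 higher and 7 lower of 33, other autophagy genes 7 and 7 of 39 and mTORC1 and TFEB control genes 4 and 3 of 24. Over all genes, 17.6% passed higher and 17.7% lower. Medians of the 5 wider lists lay between -0.0168 and 0.0179. Of the genes named above, Bnip3 (375 to 250 mean CPM, -0.60), Bnip3l (-0.44) and Tecpr1 (-0.42) fell, while Sesn2 (0.04 ± 0.06) and Flcn (0.05 ± 0.06) did not pass. Other autophagy genes had a higher mean CPM with sertraline, such as Map1lc3a (70.7 to 87.7), Optn (29.1 to 38.7) and Rubcn (57.5 to 69.7).

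The last comparison set TDECs beside MBMECs, the endothelial cells of normal brain. Of 38 members, 22 passed higher in TDECs and 12 lower, against 45.7% and 40.2% of 16135 genes, and 10 were called higher and 6 lower, against 28.1% and 20.8%. The members' shares of calls lay under those over all genes in both directions, and nothing is read from them about the list. Psap and Lamp1 were the most abundant members per kilobase in both cell types. The members' median was 0.258 against 0.0855 over all genes. The cells differ in origin and medium, 1% oxygen is given for TDECs alone, and the titles of MBMECs lack the prefix of the TDEC titles, so cell type, culture and a batch cannot be told apart.

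**Figure D5:**
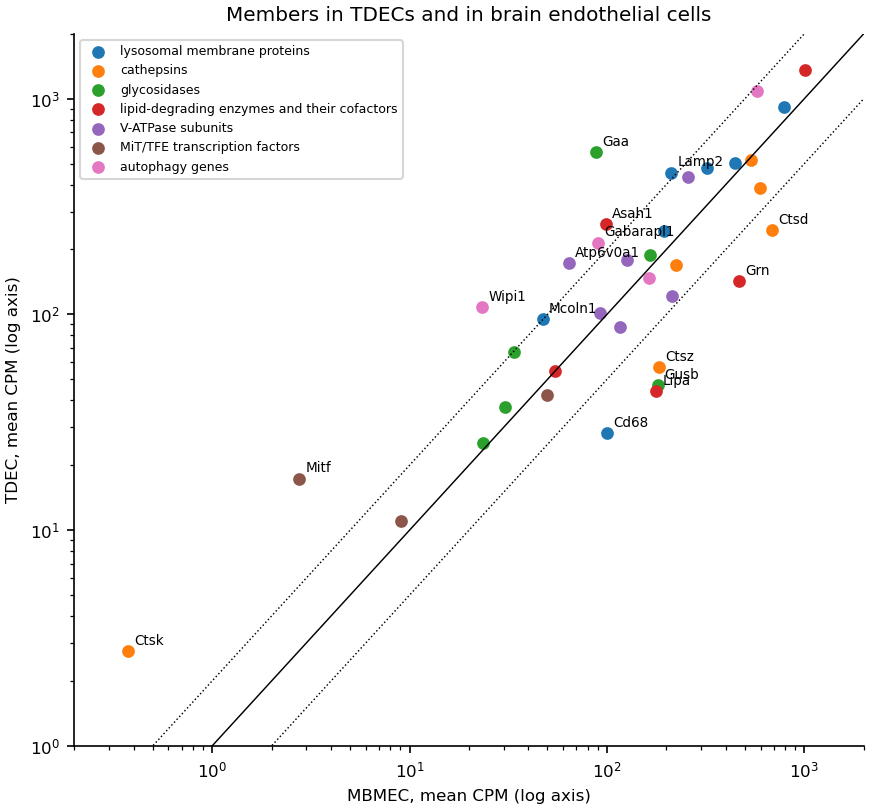
Mean CPM (log axes) of the members in TDECs against MBMECs, n = 3 each, coloured by role, with called members named. Gpnmb, at 0 in MBMECs, and Ctss are left out. The solid line marks equal levels and dotted lines a fold of 2. Gaa, Wipi1, Mitf and Ctsk lie far above the line, Cd68, Lipa, Gusb, Grn, Ctsz and Ctsd below it.

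Gpnmb had 0 counts in all MBMEC libraries and 459 over the TDEC libraries, and was at least 198-fold higher, taking a floor of 3 counts over the group. Mitf was at 2.96, 2.48 and 2.83 CPM in MBMECs against 15.04 to 18.97 in TDECs (log2 fold change 2.66 ± 0.15, adjusted p = 1.98e-15), and Ctsk at 0.441, 0.335 and 0.345 against 2.42 to 3.28 (2.85 ± 0.35, adjusted p = 2.23e-08). Gaa was at 87.9, 86.9 and 88.8 CPM against 540 to 587 (2.69 ± 0.05, adjusted p = 1.43e-27). These 4 did not overlap between groups, nor did 85.9% of all genes. Tfe3 and Tfeb did not share the pattern of Mitf, with Tfe3 at 49.4, 48.2 and 52.3 CPM in MBMECs and lower in TDECs (-0.23 ± 0.07, adjusted p = 0.00338), and Tfeb at 7.74, 9.70 and 9.86 (0.29 ± 0.15, adjusted p = 0.0692). Tfec, a further MiT/TFE factor kept on a wider list, had 33.5 mean CPM in MBMECs and 0 counts in 005 and all TDEC groups.

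Wipi1 was at 22.3, 24.96 and 22.4 CPM in MBMECs against 104 to 116 in TDECs (2.22 ± 0.07), and Atp6v0a1 at 67.9, 60.1 and 64.2 against 171 to 175 (1.44 ± 0.05). Asah1 was at 94.4, 103 and 99.9 CPM against 254 to 272 (1.41 ± 0.05), and Gabarapl1 at 89.6, 86.7 and 94.9 against 206 to 231 (1.25 ± 0.05). All 4 had an adjusted p of at most 1.71e-18. Lamp2 (log2 fold change 1.1) and Mcoln1 (1.01) were also called, Mcoln1 falling just under the fold threshold in 4 settings (0.96 to 0.99), and Neu1 (0.98) stood just under it.

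Among the members higher in MBMECs, Lipa held 180, 174 and 179 CPM there against 43.5 to 44.5 in TDECs (-2.01 ± 0.05, adjusted p = 1.42e-23), and Gusb 187, 173 and 184 against 43.8 to 48.8 (-1.94 ± 0.06, adjusted p = 1.55e-22). Cd68 held 97.4, 93.8 and 108 CPM against 24.5 to 30.0 (-1.82 ± 0.08, adjusted p = 6.56e-19). Cd68 was thus the member with the second largest rise from 005 to TDECs and still stood well under MBMECs.

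Grn held 468, 439 and 494 CPM in MBMECs against 137 to 147 in TDECs (-1.71 ± 0.05, adjusted p = 1.35e-22). Ctsz held 184, 176 and 189 CPM against 52.8 to 59.8 (-1.68 ± 0.06, adjusted p = 2.74e-21), and Ctsd 699, 632 and 719 against 240 to 250 (-1.47 ± 0.05, adjusted p = 2.96e-21). Of the 6 tested cathepsins among the members, 4 were lower in TDECs and Ctsk alone was higher, while 7 of 8 membrane proteins were higher. Over all genes, 45.7% passed higher and 40.2% lower. Cathepsins of the wider list went both ways. Mean CPM in TDECs against MBMECs was 107 against 0 for Ctsc, 75.5 against 0 for Ctsf and 16.5 against 11.5 for Ctso. For Ctsh it was 0.743 against 110.5, and Ctse was near 0 in both. Ctsb (-0.06 ± 0.04), Gla (0.11 ± 0.09), Smpd1 (0.01 ± 0.07) and Tfeb did not pass. The wider lists were split too, with 17 of 34 other lysosomal enzymes higher and 9 lower, 22 and 13 of 40 other autophagy genes, and 15 and 7 of 25 mTORC1 and TFEB control genes. Bnip3 stood at 375 mean CPM in TDECs against 18.8 in MBMECs (4.32 ± 0.06) and Igf2r, a receptor for mannose 6-phosphate, at 230 against 3.99 (5.85 ± 0.08), while Litaf was lower at 81.3 against 581 (-2.83 ± 0.05).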

How the data were processed

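RNA-seq values were the raw counts of reads per gene that the authors deposited for 15 libraries. Per the submitters' processing notes, reads were handled with featureCounts 1.6.3, HISAT2 2.1.0, Trimmomatic 0.38 and bcl2fastq 2.19 on build mm10. The strand setting, the treatment of reads with several alignments and the annotation release are not given in the sources used here. Groups and replicate numbers came from the sample titles. The study calls its TDECs before and after sertraline biological replicates. For other groups no source says whether libraries are separate cultures, so p-values measure the spread between libraries, which may be technical.

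Each comparison used its 6 libraries in R 4.3.3 with edgeR 4.0.16: filterByExpr with a minimum count of 10, TMM scaling, glmQLFit and glmQLFTest (two-sided), with Benjamini-Hochberg adjustment over all genes tested. Passing means an adjusted p under 0.05, and called adds an absolute log2 fold change above 1. Standard errors are the log2 fold change over the root of F. Levels in CPM (counts scaled to a library of equal size) were scaled by TMM over all 15 libraries. Alternatives were DESeq2 1.42.0, other size factors, a filter of 1 count, 1 fit of all libraries, a replicate block and leaving out each library. Leaving out replicate 3 of both 005 and day 2 was chosen after seeing the data. The procedure was tested on simulated data. The members and lists were chosen with earlier results of these data known. Values in every library were given for called members (up to 8 per direction, by size), for the MiT/TFE factors among the members, and with sertraline for up to 6 passing members per direction by p. From wider lists up to 4 called genes per direction by p were eligible, with at least 10 CPM in the higher group. Other genes named, such as the wider-list genes that passed with sertraline, were chosen after their values were seen. Exon lengths and overlaps came from GENCODE M21, where 36 of 39 members have the coordinates of the count table. The wider-list symbol Castor1 had no row, and some wider-list genes are not reported here by name.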

Additional observations from a re-analysis of the deposited data

How the results depend on the processing

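Counts of members kept within 1.5 times the reported ones under DESeq2, relative log expression factors, the weaker filter and 1 fit of all libraries. With plain library totals, members called higher in TDECs against 005 came to 12 (20 as reported) and members passing lower to 5 (3), and with sertraline 9 passed higher and 6 lower (5 and 11), because this scaling moves all genes together. Leaving out 1 library gave 1 to 2 members called higher on day 2 (2 without 005 replicate 1, and 2 without replicate 3 of both groups) and 1 to 2 passing lower there (1 without 005 replicate 3 or day 2 replicate 2). With sertraline 6 to 13 passed lower, the 6 without TDEC replicate 1. The cause was not tested.

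Values close to 0 changed sign. With plain totals these were Ctsb in TDECs against MBMECs (0.0045) and, with sertraline, Smpd1 (0.0244) and Sqstm1 (0.0321). Leaving out libraries gave a range of -0.0729 to 0.0088 for Smpd1 with sertraline (the highest without TDEC replicate 3), of -0.0189 to 0.311 for Tfeb with sertraline (the lowest without sertraline replicate 2) and of -0.0117 to 0.446 for Mitf on day 2 (the lowest without day 2 replicate 3, and -0.0589 without replicate 3 of both groups). Of 1014 single-gene values under left-out libraries, 951 kept direction and side of the adjusted p threshold, 47 no longer passed, 12 came to pass and 4 turned. All 36 members that passed in TDECs against 005 passed in every setting, as did 31 of 34 in TDECs against day 2, 31 of 34 in TDECs against MBMECs, 19 of 23 on day 2 and 10 of 16 with sertraline.

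Equal replicate numbers did not tie libraries together (correlations of deviations from -0.133 to 0.0244). With a replicate block, 20 members were called higher in TDECs against 005, as without it, and no count moved by over 1.5 times. The depth limits Ctss and Ctsk, and intervals of 3 libraries are wide for Tfeb and Mitf.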
